A study of Caenorhabditis elegans with 2 samples.

Results

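The peaks on the X chromosome were 7475 of the 53026 ranked peaks in a chromatin immunoprecipitation sequencing (ChIP-seq) study of CEH-91, a homeodomain protein of the worm Caenorhabditis elegans. They were taken as every peak on X in the ranked list whose coordinates include all peaks of the conservative list, the list built by comparing the replicates with each other. A peak that the authors also kept in the conservative thresholded list is called listed, and any other ranked peak is called unlisted. Of the X peaks, 43 were listed (0.575%, 95% Clopper-Pearson interval 0.417 to 0.774) and 7432 were unlisted, where 3.04% of all ranked peaks of the series were listed.

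Both samples came from 1 group, young adult worms of strain RW12305 aged 62.5 hours, grown from starved L1 larvae after bleaching. In this strain CRISPR had inserted a TY1, EGFP and 3xFLAG tag into ceh-91 on chromosome III, so the tagged protein was made from its own locus. The immunoprecipitation used an antibody against GFP per the description, whereas the antibody field of the labels names ceh-91. The replicates are labelled biological replicates 1 and 2, whole organisms were used, and the labels give no sex and no word on separate cultures. The comparisons made were listed against unlisted peaks on X, and X against the autosomes. No untagged or unbound control sample was analysed here, and the notes beside the lists name 1 control alignment for both replicates.

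ChIP-seq recovers the DNA fragments that a protein sits on, and a peak is a stretch with an excess of them. The X chromosome of C. elegans is known for few genes with strong germline expression and for a dosage compensation complex that lowers its expression in hermaphrodites. It is also rich in tRNA genes, which RNA polymerase III transcribes from promoter elements inside the gene called the A box and the B box. CEH-91 carries the homeobox, which encodes a DNA-binding domain that in many family members recognises a core of TAATTA or a close variant.

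The strongest listed X peaks were of 2 kinds, those at tRNA genes and those away from them, and the windows of 50 bp on either side of the summit at the 4 strongest of each kind are given first because the results below turn on that difference. Sequences are the plus strand of WBcel235 (ce11) from RefSeq. At tRNA genes, capitals mark the B box core, searched on both strands as GTTCGANNC, and a window without capitals did not hold these letters.
X:9743615-9743715, tRNA-Ala F15G9.t1: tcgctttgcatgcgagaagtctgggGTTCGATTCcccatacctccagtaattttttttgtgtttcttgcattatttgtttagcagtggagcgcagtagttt
X:3036078-3036178, tRNA-Gly M02F4.t1: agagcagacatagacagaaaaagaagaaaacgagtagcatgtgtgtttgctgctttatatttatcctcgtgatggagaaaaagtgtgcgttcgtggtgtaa
X:3970026-3970126, tRNA-Pro C16B8.t2: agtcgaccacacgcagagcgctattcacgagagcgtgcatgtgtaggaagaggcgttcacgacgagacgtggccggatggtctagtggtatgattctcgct
X:8404482-8404582, tRNA-Asn F41D9.t3: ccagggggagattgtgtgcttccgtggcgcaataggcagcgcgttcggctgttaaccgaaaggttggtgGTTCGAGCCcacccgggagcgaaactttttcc

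The Ala and Asn windows held the B box core, and the window at M02F4.t1 covered 15 bases of that tRNA gene and the window at C16B8.t2 covered 31 bases of its own. Away from tRNA genes, capitals mark the first copy of the best-matching repeat unit, given where a window held at most 60 different 6-letter words of the 96 possible.
X:1375190-1375290, nearest start fbxa-190: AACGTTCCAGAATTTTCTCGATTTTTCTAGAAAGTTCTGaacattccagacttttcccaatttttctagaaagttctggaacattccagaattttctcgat
X:2057945-2058045, nearest start Y102A11A.11: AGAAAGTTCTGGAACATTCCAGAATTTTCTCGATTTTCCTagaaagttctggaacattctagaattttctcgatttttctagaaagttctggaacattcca
X:8182074-8182174, upstream of C17H11.4: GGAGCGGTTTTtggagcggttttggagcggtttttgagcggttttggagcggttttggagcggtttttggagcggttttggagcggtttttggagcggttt
X:182392-182492, upstream of chkr-1 and T08D2.6: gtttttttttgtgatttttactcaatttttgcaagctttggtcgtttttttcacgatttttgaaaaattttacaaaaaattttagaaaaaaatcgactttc

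The windows held 60, 47, 17 and 74 different words in this order, so the second and the third also fall under the stricter bound of 50 words used for counts below. The best repeat unit was 39 bp near fbxa-190, 40 bp near Y102A11A.11 and 11 bp upstream of C17H11.4. The heat shock element core TTCTAGAA, which was searched for only after these windows had been seen, lay in the windows of 3 listed X peaks, X:1375085-1375394, X:2057840-2058149 and X:2058043-2058352.

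Listed peaks were rare on X. Their share of ranked peaks was 0.575% on X and 3.44% on the autosomes (43 of 7475 and 1569 of 45551), an odds ratio of 0.162 with a Woolf 95% interval of 0.120 to 0.220. Per megabase X held 2.43 listed peaks and the autosomes 19.0, while the density of ranked peaks was 422 on X and 552 on the autosomes. The autosome with the lowest share, V, had 262 listed of 10733 ranked peaks (2.44%), so the interval on X lay below that of each autosome. In the list of replicate 1 alone, 22 of 4885 X peaks were listed (0.450%, against 3.32% of all its ranked peaks). Replicate 2 alone had 13 of 5660 (0.230%, against 2.59%), and its odds ratio of X against autosomes was 0.0744 (0.0430 to 0.129). The list from pooled pseudoreplicates had 46 of 6990 (0.658%).

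About as many listed X peaks lay at tRNA genes as away from them, a share well above that of unlisted X peaks and of listed autosomal peaks. A tRNA gene lay within 100 bp of the summit for 22 of 43 listed X peaks (51.2%, 35.5 to 66.7) and for 138 of 7432 unlisted X peaks (1.86%, 1.56 to 2.19), an odds ratio of 55.4 (29.8 to 103). Among listed autosomal peaks the count was 43 of 1569 (2.74%), and X listed against autosomes listed gave an odds ratio of 37.2 (19.0 to 72.7). Unlisted peaks differed between X and the autosomes in the same direction, at 1.86% and 0.402% (odds ratio 4.68, 3.74 to 5.86). X also carried 276 annotated tRNA genes, 45.1% of those on the 6 chromosomes, or 15.6 per megabase on X and 4.07 on the autosomes. In replicate 2's own list the first odds ratio was 35.8 (11.9 to 108) and that of X against autosomes 74.0 (21.4 to 256). Against the strongest unlisted X peaks, as many as were listed, the first was 7.96 (2.63 to 24.1). That reference includes the 13 repetitive unlisted peaks with a global rate of at most 0.01 described below, none of which lay at a tRNA gene.

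**Figure D1:**
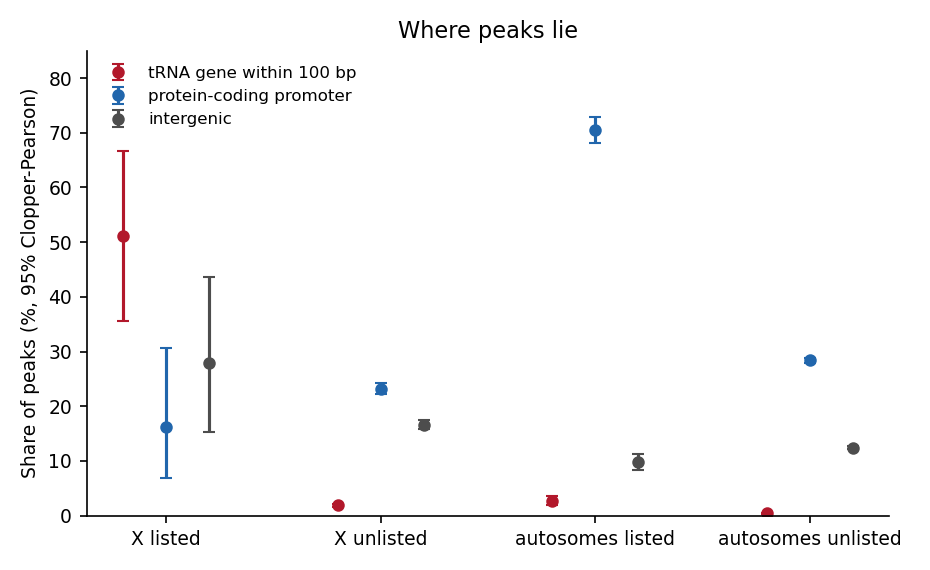
Share of peaks (percent, y axis) with a tRNA gene within 100 bp of the summit, in a protein-coding promoter, or intergenic, for listed and unlisted peaks on X and on the autosomes. Points are shares and bars are 95% Clopper-Pearson intervals. The tRNA share stands at 51.2% in listed X peaks and under 3% in the other 3 sets, and the protein-coding promoter share stands at 70.6% in listed autosomal peaks and at 16.3% in listed X peaks.

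Counted per gene, 25 of the 276 tRNA genes on X had a listed summit within 100 bp (9.06%, 5.95 to 13.1), against 47 of 336 on the autosomes (14.0%, 10.5 to 18.2). The odds ratio was 0.612 with an interval of 0.366 to 1.02, which includes 1, so a difference between X and the autosomes was not resolved for a tRNA gene taken singly. The interval excluded 1 in the pooled list (0.508, 0.302 to 0.855), with overlapping peaks merged (0.586, 0.348 to 0.985) and with a distance of 500 bp (0.619, 0.387 to 0.991). A ranked summit lay at 163 of the X tRNA genes (59.1%) and at 224 of the autosomal ones (66.7%), an odds ratio of 0.721 (0.518 to 1.00). Seen from the peaks, 22 of 160 ranked peaks at tRNA genes were listed on X (13.8%, 8.82 to 20.1) and 43 of 220 on the autosomes (19.5%, 14.5 to 25.4), with an odds ratio of 0.656 (0.375 to 1.15).

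Away from tRNA genes few X peaks were listed. There 21 of 7315 ranked X peaks were listed (0.287%, 0.178 to 0.439), against 1526 of 45331 autosomal ones (3.37%, 3.20 to 3.54), an odds ratio of 0.0826 (0.0537 to 0.127). The 21 include X:1698364-1698673 and X:11095798-11096107, whose nearest starts were tRNA genes at 155 and 280 bp. Each overlapped a listed tRNA peak and shared its strongest replicate peaks. With tRNA genes counted within 500 bp of the summit the odds ratio was 0.0758 (0.0482 to 0.119). In protein-coding promoters the counts were 7 of 1730 on X (0.405%) and 1107 of 13618 on the autosomes (8.13%), an odds ratio of 0.0459 (0.0218 to 0.0967). Peaks at neither kind of site were listed in 16 of 5614 cases on X (0.285%) and 435 of 31773 on the autosomes (1.37%), an odds ratio of 0.206 (0.125 to 0.339). In replicate 2's own list the odds ratio away from tRNA genes was 0.0412 (0.0196 to 0.0868). Only the interval for tRNA genes included 1 among these 4 sets of peaks, and the odds ratios of the sets were not tested against each other.

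**Figure D2:**
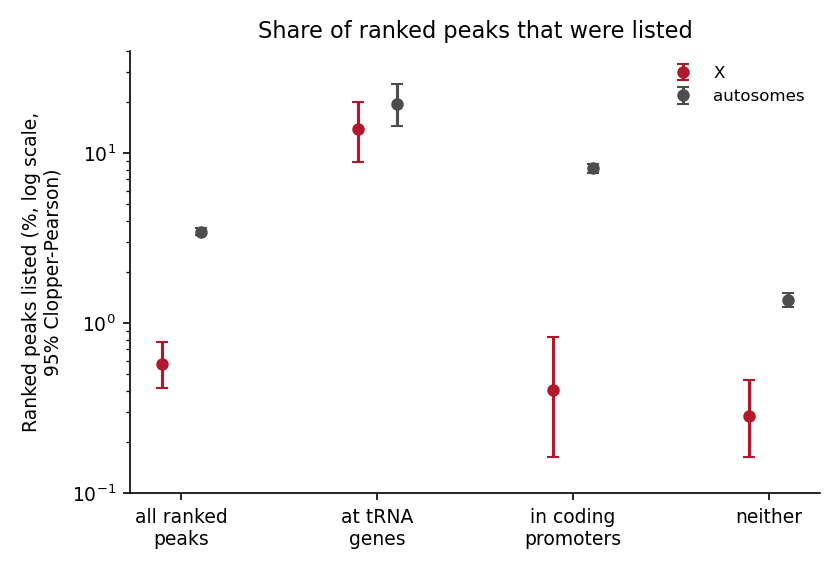
Share of ranked peaks that were listed (percent, log scale) on X and on the autosomes, for all ranked peaks, peaks at tRNA genes, peaks in protein-coding promoters, and peaks at neither. Bars are 95% Clopper-Pearson intervals, which overlap between X and the autosomes at tRNA genes (13.8% and 19.5%) and do not overlap in the other 3 sets.

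The 25 tRNA genes decode 12 amino acids. Genes for alanine were listed in 4 of 13 cases on X and 3 of 21 on the autosomes. Genes for arginine were listed in 4 of 27 on X and 5 of 17 on the autosomes, and genes for glycine in 4 of 20 on X and 3 of 35 on the autosomes. Glutamate followed with 3 of 23 on X, proline with 2 of 20 and serine with 2 of 18. Asparagine, aspartate, isoleucine, leucine, lysine and threonine each had 1 listed gene on X. None was listed on X among the 15 genes for glutamine, the 14 for valine, the 9 for histidine, the 8 for methionine and the 8 for tyrosine, nor among those for cysteine, phenylalanine and tryptophan. These counts are too small to order the amino acids.

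The strongest tRNA peak on X, at X:9743510-9743819, had a signal of 160 and a global irreproducible discovery rate (IDR, the estimated rate of peaks that do not repeat between the inputs) of 9.1e-05. Signal is the authors' value per peak, used here to rank and describe peaks. The strongest overlapping peak in each replicate's own ranked list had a signal of 96.1 in replicate 1 and 58.5 in replicate 2. The peak covered 2 alanine tRNA genes, F15G9.t1 and F15G9.t2, inside him-4, which encodes the extracellular matrix protein hemicentin. At X:3035973-3036282 (signal 133, replicate 1 78.3, replicate 2 45.9) lay the glycine gene M02F4.t1 and the glutamate gene M02F4.t2 on opposite strands. The proline gene C16B8.t2 had 124, with 66.9 in replicate 1 and 59.8 in replicate 2. The asparagine gene F41D9.t3, inside the anion transporter gene sulp-3, had 122, with 67.6 in replicate 1 and 49.1 in replicate 2. All 4 were listed in both replicates' own lists.

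Further tRNA peaks among the 15 strongest listed X peaks stood at the aspartate gene F38G1.t2 (signal 122), the glycine gene F17H10.t1 (100), the glutamate gene rte-5 with the serine gene F02D10.t2 (98.7) and the arginine gene C18A11.t2 (97.8). Of these, F38G1.t2 and C18A11.t2 were listed in both replicates, and F17H10.t1 and rte-5 in neither. The summit lay a median of 24 bp downstream of the tRNA gene's start over the 22 listed peaks (range -58 to 120), and inside the gene in 11 of them. Over the 138 unlisted tRNA peaks the median was 31 bp and 62 summits were inside.

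Protein-coding promoters accounted for 7 listed X peaks. The share was 16.3% of listed and 23.2% of unlisted X peaks (odds ratio 0.644, 0.286 to 1.45), and 70.6% of listed autosomal peaks (odds ratio of X against autosomes 0.0812, 0.0359 to 0.184). The wider promoter class, 1000 bp upstream to 200 bp downstream of any annotated transcript start, held 29 of 43 listed X peaks (67.4%) and 2893 of 7432 unlisted ones (38.9%), an odds ratio of 3.25 (1.71 to 6.16). In replicate 2's own list that odds ratio was 2.47 with an interval that included 1 (0.807 to 7.56). A summit at a tRNA gene is close to a transcript start by construction, and with tRNA peaks set aside the class held 7 of 21 listed (33.3%) and 2755 of 7294 unlisted X peaks (37.8%), an odds ratio of 0.824 (0.332 to 2.04). Those 7 still include X:1698364-1698673, whose nearest start was the arginine tRNA gene C36C9.t2 at 155 bp. Intergenic sequence held 12 of 43 listed X peaks (27.9%), 1234 of 7432 unlisted ones (16.6%) and 153 of 1569 listed autosomal peaks (9.75%).

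The summit upstream of C17H11.4 (WBGene00015924, X:8181139-8181640) lay 484 bp before its start. Its signal was 137, with 97.8 in replicate 1 and 39 in replicate 2, and replicate 2's own list did not hold it. At X:182287-182596 the summit lay between the divergent genes chkr-1 and T08D2.6, 249 and 273 bp from their starts, with a signal of 130, 95.8 in replicate 1 and 31.8 in replicate 2. These 2 peaks had the largest ratios of replicate 1 to replicate 2 among the 15 strongest listed X peaks.

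The fibroblast growth factor gene egl-17 shared its peak with the aspartate tRNA gene F38G1.t2, and the summit was 50 bp downstream of the tRNA start and 115 bp downstream of an annotated egl-17 start. Signal there was 75.3 in replicate 1 and 48.3 in replicate 2. The peak of lev-9, which encodes a protein that clusters acetylcholine receptors in muscle, and mom-1, a Wnt secretion gene, had 56.2 in replicate 1 and 32.8 in replicate 2. Its summit was 31 bp from the start of the alanine tRNA gene T07H6.t2, 586 bp from lev-9 and 794 bp from mom-1. These promoters cannot be told apart from the tRNA genes beside them.

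The other 3 promoter peaks had no tRNA gene within 100 bp. The peak of serp-1.1 had 59.5 in replicate 1 and 40.2 in replicate 2, and its summit lay 301 bp upstream. The kinesin gene klp-13 had 61.3 and 28.0 in replicates 1 and 2, at 193 bp upstream. The protein disulphide isomerase gene pdi-6 had 50.9 and 36.1 in replicates 1 and 2, at 20 bp upstream. None of the 3 was in either replicate's own list.

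Intergenic peaks included the strongest listed X peak, X:1375085-1375394, with a signal of 242. It had 159 in replicate 1 and 99.3 in replicate 2, the lowest global rate recorded (1e-05), and its nearest annotated start was the F-box gene fbxa-190 at 3228 bp. Next came X:2057840-2058149 with 188, and 100 in replicate 1 and 87.1 in replicate 2. A listed neighbour at X:2058043-2058352 overlapped it by 107 bp and rested on the same replicate peaks, and another at X:2058647-2058956 (signal 76.3) lay beyond. The peak at X:3631574-3631883 had 108, and its summit lay 2025 bp downstream of the start of the glutathione S-transferase gene gst-11. The peak at X:1503941-1504250 had 80.3 in replicate 1 and 40.1 in replicate 2. Its summit lay 745 bp downstream of the start of tts-1, a long non-coding RNA.

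Listed X peaks were weaker than listed autosomal peaks. The median signal was 88.2 on X (order-statistic 95% interval 84.1 to 95.9, range 2.53 to 242) and 124 on the autosomes (121 to 129, highest 1362). The medians of unlisted peaks were 28.6 on X and 29.0 on the autosomes. Signal entered the ranking that made the lists, so these values describe them and are no test. Among listed X peaks, those at tRNA genes had a median of 90.4 and those elsewhere 84.1. Among listed autosomal peaks the median was 95.3 at tRNA genes and 127 elsewhere. Only 6 of the 43 listed X peaks exceeded the median of listed autosomal peaks, and the strongest ranked 264th among all listed peaks.

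Every listed X peak was 310 bp wide, and 4 of them had signals of 17.5, 5.03, 2.87 and 2.53, whereas the lowest of the others was 72.3. Each of these 4 overlapped a stronger listed X peak by 95 to 111 bp and shared its strongest replicate peaks. With overlapping peaks merged, 38 listed X peaks were left, 21 of them at tRNA genes.

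At a like signal, the listed share of X peaks away from tRNA genes lay under that of autosomal peaks in every class above 75, though most of these classes held under 10 such X peaks. Between signals of 75 and 100, 14 of 19 X peaks at tRNA genes were listed (73.7%, 48.8 to 90.9) and 11 of 31 X peaks elsewhere (35.5%, 19.2 to 54.6), against 361 of 611 on the autosomes (59.1%, 55.1 to 63.0). Of autosomal peaks in this class, 24 of 39 at tRNA genes were listed (61.5%, 44.6 to 76.6). Elsewhere on the autosomes the count was 337 of 572 (58.9%, 54.8 to 63.0). Between 100 and 150 the counts were 5 of 5 at X tRNA genes, 4 of 8 elsewhere on X (50%, 15.7 to 84.3) and 473 of 504 on the autosomes (93.8%). Above 300, 0 of 5 X peaks were listed (an upper limit of 52.2%), against 177 of 202 on the autosomes (87.6%). All 5 of these X peaks had a global rate of 1e-05 and are among the peaks described next. Below 75, few peaks were listed on either, and that range held most ranked peaks, including 4078 X peaks between 25 and 50 of which 0 were listed.

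**Figure D3:**
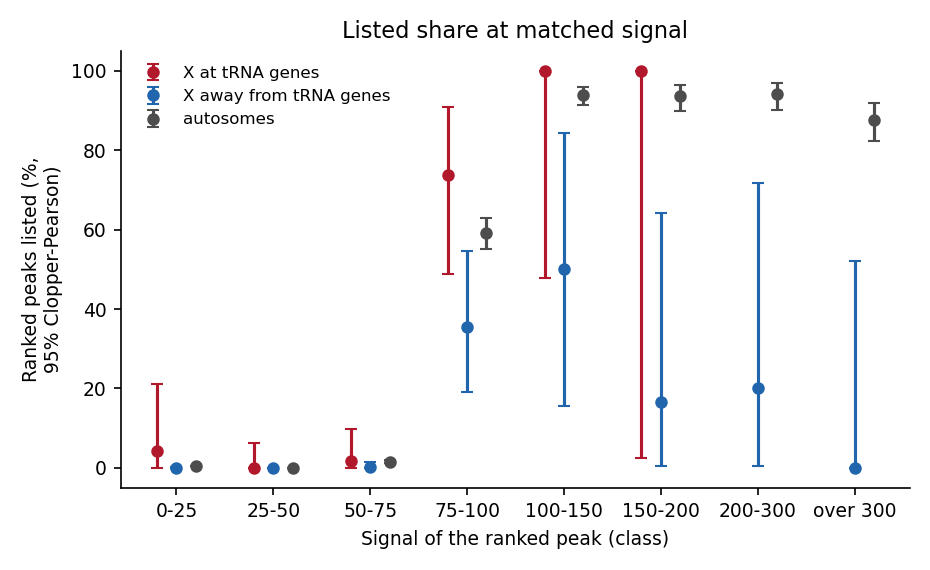
Share of ranked peaks that were listed (percent, y axis) by class of signal (x axis), for X peaks at tRNA genes, X peaks elsewhere and all autosomal peaks together, with 95% Clopper-Pearson intervals. Above a signal of 100, X peaks away from tRNA genes sit at 50% or less and autosomal peaks between 87.6% and 94.1%. X tRNA peaks reach no further than the class from 150 to 200. Unlisted peaks here include those with a global rate of at most 0.01.

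The missing strong peaks included 13 X peaks with a global rate of at most 0.01 that were absent from the thresholded list. They ranged from 77.4 to 2062 in signal (median 246), and the 2 strongest ranked peaks of the whole series were among them. The first, X:110363-110622, had 2062, with 630 in replicate 1 and 1448 in replicate 2. The second, X:15810944-15811152, had 2025, with 1148 in replicate 1 and 1124 in replicate 2. Their summit windows are shown because all 13 such windows were repetitive, with the first copy of the repeat unit, 27 and 26 bp, in capitals.
X:110454-110554, nearest start elk-2: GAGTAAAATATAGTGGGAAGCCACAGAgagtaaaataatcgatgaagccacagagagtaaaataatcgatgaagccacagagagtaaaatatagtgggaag
X:15811058-15811158, nearest start Y7A5A.11: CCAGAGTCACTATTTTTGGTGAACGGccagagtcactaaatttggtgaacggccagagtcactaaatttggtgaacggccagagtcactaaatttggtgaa

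The next strongest of the 13 had signals of 718 (X:5056284-5056504), 654 (X:5056847-5057032) and 412 (X:11785666-11785975). The 13 windows held 32 to 48 different 6-letter words of 96, where the median over all ranked X peaks was 94. At most 50 words, a bound chosen after the windows had been seen, were found in 13 of 13 of these peaks, 6 of 43 listed X peaks (14.0%, 5.30 to 27.9) and 65 of 7419 X peaks with a rate above 0.01 (0.876%). On the autosomes the counts were 48 of 75 peaks left out in the same way (64.0%), 23 of 1569 listed peaks (1.47%, 0.931 to 2.19) and 413 of 43907 with a rate above 0.01 (0.941%). None of the 13 lay at a tRNA gene or in a protein-coding promoter, and 10 were intergenic. The notes beside the lists name 1 more input file for the thresholded lists than for the ranked ones, and its part in leaving these peaks out was not tested.

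Among X peaks with a rate above 0.01, the 5 strongest had signals of 213, 183, 183, 156 and 146. Their overlapping peaks were strong in replicate 2 (234, 178, 224, 118 and 142) and weak or missing in replicate 1, where 3 of them had 34.1, 31.2 and 32.6 and the other two had no ranked peak. The replicate 2 peaks all had a rate of 1e-05, yet none of the 5 was in replicate 2's own thresholded list. X:111820-111938 and X:14908496-14908805 each lay between peaks of the 13 left out. Why these peaks were unlisted was not tested. The strongest, X:3007304-3007613, lay 923 bp upstream of the microRNA gene mir-249.

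Just inside the threshold stood the lysine gene C33G3.t2 (signal 82.4, rate 0.0094), the glutamate gene F25F6.t1 (77.9, 0.0092) and the glycine gene C28G1.t4 (72.3, 0.0091). Just outside stood the valine gene R04D3.t2 (82.0), a peak 942 bp upstream of ain-1, which acts in microRNA silencing (79.1), and an exonic peak whose nearest start was tag-18 (70.9), each with a rate that rounds to 0.01.

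Replicate support was thinner for listed X peaks than for listed autosomal peaks. A peak listed in each replicate's own list overlapped 9 of 43 listed X peaks (20.9%, 10 to 36.0) and 804 of 1569 listed autosomal peaks (51.2%, 48.7 to 53.7). Replicate 1 alone accounted for 7 more on X, replicate 2 alone for 2, and 25 were in neither list. Overlapping peaks that rest on the same replicate peaks were counted separately, and the 2 of replicate 2 alone are such a pair. With overlapping peaks merged, 8 of 38 were in both (21.1%, 9.55 to 37.3). Restricted to autosomal peaks no stronger than the strongest listed X peak, 541 of 1306 were in both (41.4%, 38.7 to 44.2). This limit did not match signal. The restricted autosomal peaks had median signals of 72.2 in replicate 1 and 44.0 in replicate 2, and listed X peaks 58.8 and 33.8. Whether support differs at equal signal was not tested. At tRNA genes support was 6 of 22 on X (27.3%, 10.7 to 50.2) and 7 of 43 on the autosomes (16.3%, 6.81 to 30.7), and elsewhere 3 of 21 on X (14.3%, 3.05 to 36.3) and 797 of 1526 on the autosomes (52.2%). The conservative list was itself made from the replicates, so the overlap is not independent. In ranked form, before any threshold, 42 of 43 listed X peaks and 2138 of 7432 unlisted X peaks (28.8%) had a peak in both replicates.

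**Figure D4:**
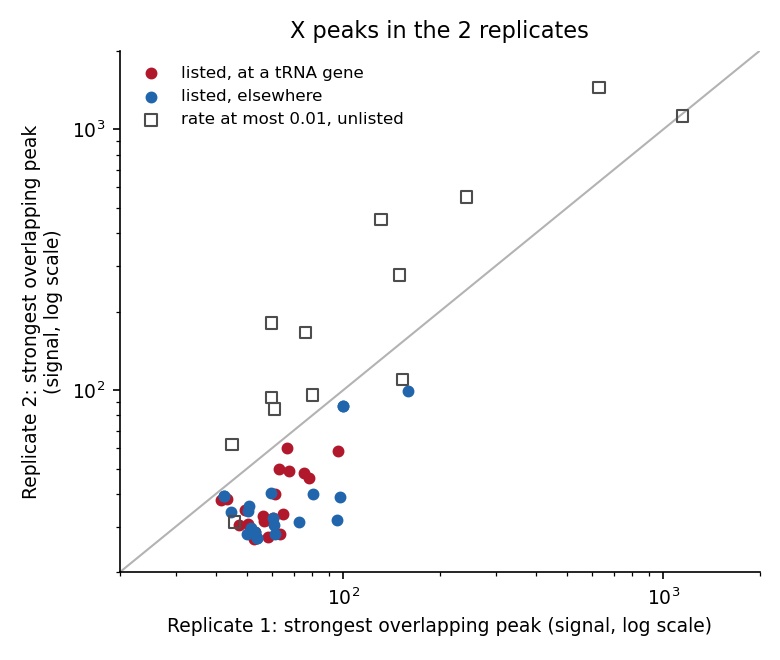
Signal of the strongest overlapping ranked peak in replicate 1 (x axis) and replicate 2 (y axis), both on log scales, for listed X peaks at and away from tRNA genes and for the 13 unlisted X peaks with a rate of at most 0.01. The line marks equal signal. The 42 listed peaks found in both replicates lie below it, and 10 of the 13 unlisted peaks lie above it. Among the 42 are 5 overlapping pairs whose points coincide.

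Signal in replicate 1 exceeded that in replicate 2 at all 42 listed X peaks with a ranked peak in both, with a median log2 ratio of 0.77 (SD 0.36, range 0.11 to 1.59). The 42 include 5 overlapping pairs that rest on the same replicate peaks, so the values of each pair entered 2 times. The 13 peaks that were left out had a median of -0.66 (SD 0.73), with 10 of 13 higher in replicate 2. On the autosomes 1498 of 1554 listed peaks were higher in replicate 1, with a median of 0.74, so the offset of listed X peaks was that of the lists as a whole. The replicates' lists were scaled separately, and library depth is unknown.

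Listed peaks were spread along X without a resolved gradient. In 10 equal parts from the left end the counts were 7, 5, 6, 4, 6, 2, 2, 5, 2 and 4, or 0.955% of ranked peaks in the first (interval 0.385 to 1.96) and 0.430% in the last (0.117 to 1.10), and these intervals overlapped. All 5 listed peaks of the eighth part and 5 of the 6 in the fifth were at tRNA genes, and these parts held the most tRNA genes, 53 and 54. The last part held 34 tRNA genes and 18 unlisted tRNA peaks but 0 listed ones. After merging, neighbouring listed summits were a median of 359 kb apart, and the widest gap was 1738 kb, from the lysine tRNA gene C33G3.t2 to the intron of Y7A5A.7.

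**Figure D5:**
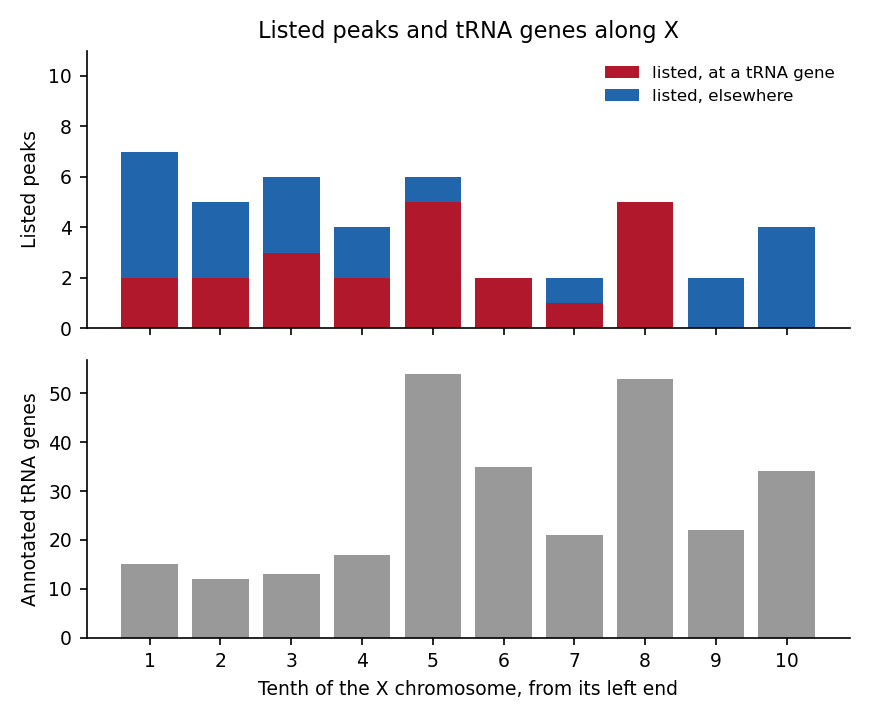
Listed X peaks at tRNA genes and elsewhere (upper panel, counts) and annotated tRNA genes (lower panel, counts) in 10 equal parts of the X chromosome from its left end. The fifth and eighth parts have the most tRNA genes, 54 and 53, and 5 listed tRNA peaks each, and the last 2 parts have no listed tRNA peak.

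By gene group, tRNA genes had the highest listed share on X. A listed summit lay in the promoter window of 32 of the 210 X tRNA genes with a ranked one (15.2%, 10.7 to 20.8) and of 63 of 281 on the autosomes (22.4%, 17.7 to 27.8). Of the protein-coding genes with a ranked summit in the promoter window, 9 of 1157 had a listed one on X (0.778%, 0.356 to 1.47) and 1464 of 9243 on the autosomes (15.8%, 15.1 to 16.6). Non-coding RNA genes outside the named kinds had 16 of 1168 on X (1.37%, 0.785 to 2.22) and 233 of 2780 on the autosomes (8.38%). This group overlaps the tRNA peaks on X. The non-coding RNA starts of F15G9.8, F02D10.11, T08A9.15 and C33G3.12 lay 13, 76, 36 and 21 bp from the summits of listed tRNA peaks. Only 7 listed X peaks in promoters had no tRNA gene within 100 bp, 5 of them in protein-coding promoters. For snoRNA genes the counts were 1 of 18 on X (5.56%, 0.141 to 27.3) and 79 of 237 on the autosomes (33.3%). Among microRNA genes they were 0 of 35 on X (upper limit 10%) and 13 of 109 on the autosomes (11.9%). Pseudogenes had 0 of 71 on X (upper limit 5.06%) and 45 of 790 on the autosomes (5.70%).

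Ribosomal protein genes, of which 55 of the 76 with a ranked summit were listed on the autosomes, have only rpl-11.2 and rpl-25.1 on X. The summit at rpl-25.1 had a signal of 26.4 and was unlisted, and rpl-11.2 had no ranked summit. Homeobox genes had 0 listed of 8 ranked on X (upper limit 36.9%), out of 25 annotated there, and 4 of 38 on the autosomes. The strongest on X was vab-3, the worm Pax6 gene, with a signal of 45.7 and a rate of 0.9.

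On a list for sex determination and dosage compensation, 0 of the 4 X-linked genes with a ranked summit were listed (upper limit 60.2%), of 6 annotated there, against 2 of 14 with a ranked summit on the autosomes, of 16 annotated. With 0.778% of all ranked protein-coding genes on X listed, a count of 0 in a list of this size, or in the homeobox list, says nothing particular about it. Among the X signal elements, genes whose products count X chromosomes relative to autosomes, fox-1 had the strongest peak with a signal of 57.6 (rate 0.21), sex-1 had 33.4, and ceh-39 had no ranked summit. The dosage compensation genes sdc-1 and sdc-2 had 28.0 and 26.9, and the sex switch gene xol-1 had no ranked summit in its promoter window.

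The same windows, 50 bp on either side of each summit, were searched on both strands. The B box core was found in 8 of 22 listed X peaks at tRNA genes (36.4%, 17.2 to 59.3), 57 of 138 unlisted ones (41.3%, 33.0 to 50) and 618 of all 53026 windows (1.17%). The A box core TGGCNNAGT was in 0 of 22 listed X tRNA peaks, 6 of 138 unlisted ones and 1.44% of all windows. Only these letters were searched and a window can cover part of a tRNA gene only, so this count does not show that A boxes are absent. The homeodomain core TAATTA was in 1 of 43 listed X peaks (2.33%, 0.0589 to 12.3), 234 of 7432 unlisted X peaks (3.15%) and 3.04% of all windows. The core GCGCAGGG of a motif found at dosage compensation sites on X was in 1 listed X peak, X:4209141-4209450, in 9 of 7432 unlisted X peaks (0.121%) and in 0.0735% of all windows. The heat shock element core was in 3 of 43 listed X peaks (6.98%, 1.46 to 19.1), 35 of 7432 unlisted X peaks (0.471%), 15 of 1569 listed autosomal peaks (0.956%) and 0.577% of all windows. No motif is part of another, a match describes letters only, and 2 of the 3 heat shock windows lie in neighbouring, overlapping peaks. The median GC content was 50.5% in listed X peaks, 41.6% in unlisted X peaks and 44.6% in listed autosomal peaks.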

How the data were processed

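ChIP-seq was done on 2 biological replicates of 1 group. The authors deposited 8 peak lists on ce11 (WBcel235), a ranked and a thresholded one for each replicate and for 2 comparisons over both replicates, so calling was done both within replicates and across them. The deposited signal per peak is the authors' value, and the deposited −log10 of the global discovery rate runs up to 5. The sources used here name no aligner and no peak caller. No list gives read counts, so depth is unknown, and intervals cover counting error over peaks or genes only.

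Peaks were placed on Ensembl release 115 gene models, after checking that all peaks ended within WBcel235 chromosomes. Each summit went to a promoter, exon, intron or intergenic class, in that order. Amino acids of tRNA genes came from RefSeq by WormBase ID, which matched all 276 genes on X and 336 on the autosomes. No amino acid was named for 3 of those on X and 2 of those on the autosomes. Overlaps required 1 bp. Shares have Clopper-Pearson and odds ratios Woolf 95% intervals, and a difference was called when the odds ratio's interval excluded 1. No p-value was computed, since peaks are not replicates. Named peaks were those in protein-coding promoters, the 15 strongest listed, the strongest unlisted and those nearest the threshold. The symbol sex-2 matched no gene. The members, lists and rules were chosen with earlier results of these data known, and the repeat bound and the heat shock element core after seeing the windows. Counting code was tested on simulated peaks (Python 3.11.15, pandas 2.3.3, scipy 1.17.1).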

Additional observations from a re-analysis of the deposited data

How the results depend on the processing

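Of 63 alternative values for 9 results, 52 were counted as the same. For an odds ratio this means the same direction and call, and 0 changed direction. The median signal and the share listed in both replicates have no direction. For them it means a value within the main interval, and 6 values fell outside it. Restricting the unlisted peaks could not change these last results, which use listed peaks only. The same holds for the tRNA share of listed peaks on X against autosomes (37.2) and for listed tRNA genes (0.612). Their unchanged values under that setting are still among the 52. The promoter odds ratio of listed against unlisted X peaks (3.25) was no longer called at a global rate of at most 0.001, at 2.73 (0.799 to 9.34), and leaving out 1 replicate gave 2.47 to 2.65, of which replicate 2's own list, at 2.47 (0.807 to 7.56), was not called. The odds ratio for listed tRNA genes on X against autosomes (0.612) became called in the pooled list at 0.508 (0.302 to 0.855), with overlapping peaks merged at 0.586 (0.348 to 0.985) and within 500 bp of the summit at 0.619 (0.387 to 0.991). The median signal of listed X peaks (88.2) was 124 at a rate of at most 0.001, and 67.1 and 49.1 in the lists of replicates 1 and 2, which were scaled separately. The share of listed X peaks listed in both replicates (20.9%) was 81.8% at a rate of at most 0.001 (9 of 11 peaks), and leaving out 1 replicate gave 36.4% to 61.5% of the other's own X list found in the left-out one. At a rate of at most 0.001 the odds ratio of X against autosomes was 0.0659 for all ranked peaks, 0.0308 away from tRNA genes and 118 for the tRNA share of listed peaks, and all stayed called. The causes were not tested. No paired analysis was possible because the series has 1 group. With 43 listed X peaks, differences among amino acids or parts of the chromosome are beyond what these lists resolve.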
